A study of Populus trichocarpa with 15 samples.

Results

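Low-numbered and high-numbered branches of the same black cottonwoods (Populus trichocarpa) were compared by the open chromatin of their leaves. The branch number in the sample title chose the libraries. Branches 1 and 2 formed the low class with 5 libraries (13.1, 13.2, 14.1, 14.2 and 4.2), and branches 4 and 5 formed the high class with 6 libraries (13.4, 13.5, 14.4, 14.5, 4.4 and 4.5). These 11 libraries are part of a series of 15. The 3 libraries of branch 3 and the library titled 1.1 were left out of the comparison. In each name the number before the point is the tree and the number after it is the branch.

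All groups are untreated leaves of wild trees in Oregon, frozen after harvest, with 1 library per branch and no technical replicate. Trees 13 and 14 are separate stems of the same root system, and tree 4 stands apart in the same stand. The low class therefore held 2 branches of tree 13, 2 of tree 14 and 1 of tree 4, and the high class held 2 branches of each tree. In the study's drawing of trees 13 and 14 the low-numbered branches lie higher in the crown and are younger than the high-numbered ones, and branch 14.5 is described as the oldest of tree 14. Branches 13.4 and 14.1 were too damaged to be dated, although 14.1 is elsewhere described as among the youngest branches, and the age of 14.4 was estimated from its diameter. No age was used as a number here, and for tree 4 the class is a branch number only. Branch class may go with position in the crown as well as with age, and these cannot be told apart.

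Chromatin is open where nucleosomes are displaced, mostly at promoters and at enhancers of genes in use. ATAC-seq marks such places with a transposase that inserts sequencing adapters into accessible DNA, and a peak is a stretch with more insertions than its surroundings. Every branch of a tree grows from a shoot meristem, whose stem cells divide as the shoot lengthens, so branches that separated long ago have separate histories of cell division. Chromatin states that pass through cell division could in principle differ between such branches. The leaf is mostly mesophyll, the photosynthetic tissue, with epidermis and veins, and a whole-leaf library averages over these cell types.

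The deposited lists gave each peak a start, an end and a -log10 q value, which measures how surely the peak stands above its background within its own library and grows with sequencing depth as well as with accessibility. Read totals were not used here, so the depth of the libraries is unknown. Across the 11 lists the number of peaks on the 19 chromosomes ranged 2.93-fold, from 12752 in 13.5 to 37420 in 13.2. Both ends of this range lie in tree 13 and in opposite classes, so comparisons are also given for lists of equal length, in which each library kept its 12752 peaks of highest -log10 q. These lists end at a different -log10 q in each library, from 2.05 in 13.5, which kept its whole list, to 7.67 in 13.2. They therefore set the weak calls of 13.5 beside only the stronger calls of the others.

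The number of open regions found in a leaf did not differ between low-numbered and high-numbered branches beyond the spread between branches. The 5 low libraries had 28067 peaks in 13.1, 37420 in 13.2, 31967 in 14.1, 26258 in 14.2 and 25026 in 4.2, a mean of 29748 ± 5027 (SD, n = 5). The 6 high libraries ran from 12752 in 13.5 over a median of 27177 to 31720 in 4.4, a mean of 25164 ± 7459 (SD, n = 6). The classes overlapped, since 14.4, 4.4 and 4.5 each had more peaks than 13.1. Averaged over trees, high minus low was -3797 peaks, and an exact two-sided permutation test within trees gave p = 0.389 (adjusted p = 0.891 over the 7 tests of whole lists). With 108 possible arrangements the smallest p this design allows is 0.00926. Each library is a different branch, so these p-values measure the spread between branches, which includes any spread of library preparation.

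The trees went in different directions. In tree 13 high minus low was -14469 peaks, with 23797 in 13.4 and 12752 in 13.5, both below 13.1 and 13.2. The corresponding high minus low value was -3033.5 in tree 14, where 14.4 had 31004 and 14.5 had 21154 peaks and the classes interleaved. In tree 4 it was 6112.5, with 31720 peaks in 4.4 and 30557 in 4.5 above the 25026 of 4.2. The plot of the lists by library shows these opposite slopes, and the libraries of branch 3 do not lie between their neighbours in a fixed way: 14.3, with 39613 peaks, had the longest list of its tree, and 4.3, with 19769, the shortest of its tree.

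**Figure D1:**
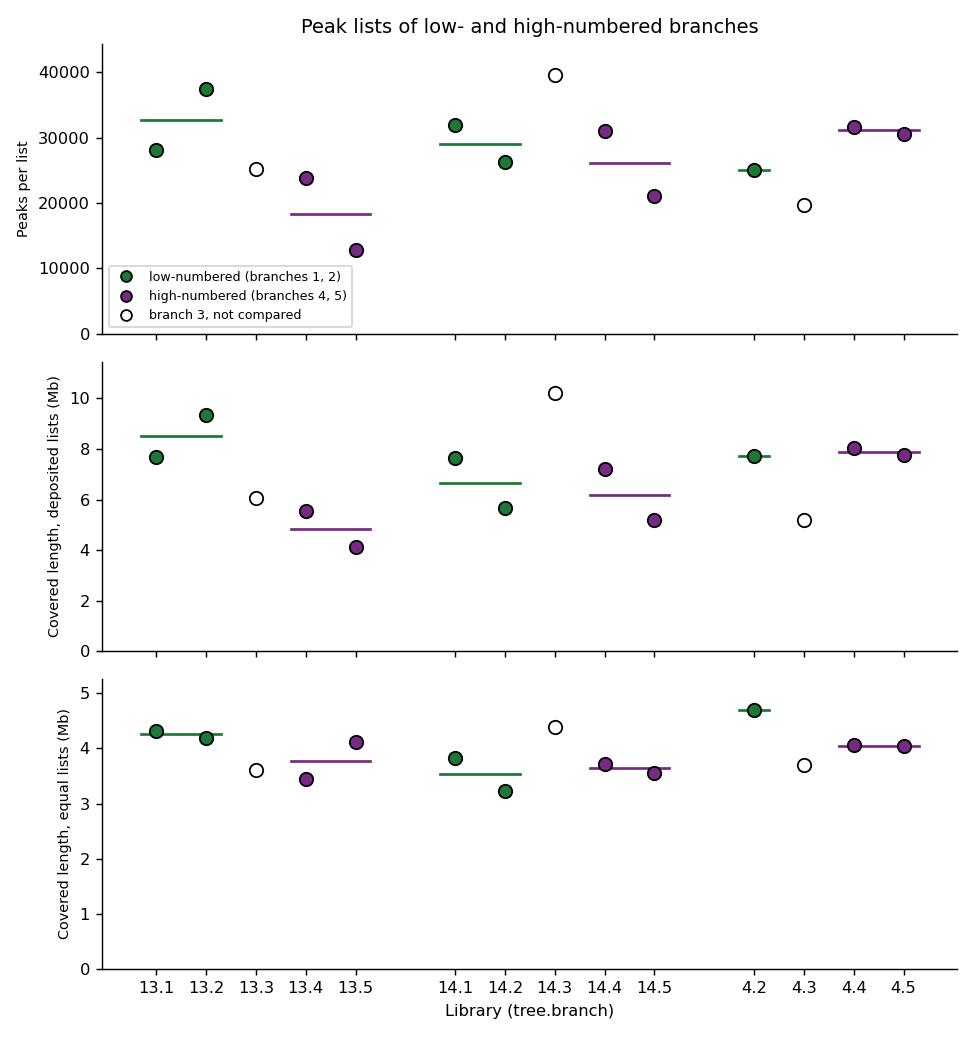
Peaks per list, covered length of the deposited lists and covered length of the lists of equal length (Mb) for each library, named by tree and branch; green points are low-numbered, purple points high-numbered and white points branch 3, and lines are class means within a tree. High points lie below low points in tree 13 and above in tree 4 for the deposited lists, and with lists of equal length all 14 libraries lie between 3.23 and 4.70 Mb.

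The genome covered by peaks was the measure of the lists with the smallest p, and it too missed the threshold. Low libraries covered 7.70 Mb in 13.1, 9.35 in 13.2, 7.66 in 14.1, 5.65 in 14.2 and 7.72 in 4.2. High libraries ran from 4.12 Mb in 13.5 over a median of 6.37 to 8.02 in 4.4. The ranges overlapped over most of their length, and the difference was -1.33 Mb (p = 0.111 by the exact permutation test, adjusted p = 0.519).

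Most of that difference came from tree 13, at -3.69 Mb against -0.459 in tree 14 and 0.167 in tree 4. With lists of equal length the low mean was 4.05 ± 0.554 Mb (SD, n = 5) and the high mean 3.82 ± 0.290 Mb (SD, n = 6). Library 13.5, lowest of all by deposited list, kept its whole list and so its 4.12 Mb, while 13.2, cut to its strongest peaks, fell to 4.20 Mb.

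In width and in -log10 q the peaks of the classes differed by less than the spread between branches. The median peak was 217.4 ± 32.0 bp wide in low libraries (SD, n = 5) and 219.9 ± 33.4 bp in high libraries (SD, n = 6), with a within-tree difference of -5.08 bp (exact permutation p = 0.769, adjusted p = 0.917). The median -log10 q was 5.32 ± 0.404 in low and 5.35 ± 0.355 in high libraries, a within-tree difference of 0.0249 (exact permutation p = 0.917, adjusted p = 0.917). Strongly called peaks, those with a -log10 q of at least 10, made up 16.4 ± 4.55% of low lists and 15.4 ± 3.24% of high lists. The difference was -1.21 percentage points (exact permutation p = 0.509, adjusted p = 0.891).

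With all 11 libraries, branches of the same class were not measurably more alike in their set of open regions than branches of opposite class. Overlapping or touching peaks of the 11 lists merged into 51686 regions, and a library was taken to call each region that at least 1 base of its peaks touched. Likeness between libraries was measured by the Jaccard index on base pairs. It is the length of genome under peaks of both libraries divided by the length under peaks of either. Over all 55 pairs it was 0.514 ± 0.0561 (SD), from 0.370 for 13.2 with 13.5 to 0.604 for 14.4 with 4.4, which are branches of different trees.

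Within trees, the 5 pairs of the same class averaged 0.530 and the 10 low-high pairs 0.502. The difference of 0.0279 had p = 0.148 by an exact one-sided permutation test (adjusted p = 0.519). Across trees, 20 pairs of the same class averaged 0.510 and 20 low-high pairs 0.519, a difference of -0.00870 (exact permutation p = 0.815, adjusted p = 0.917). Pairs of the same class thus had the higher mean within trees and the lower mean across trees, and neither difference passed the test.

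**Figure D2:**
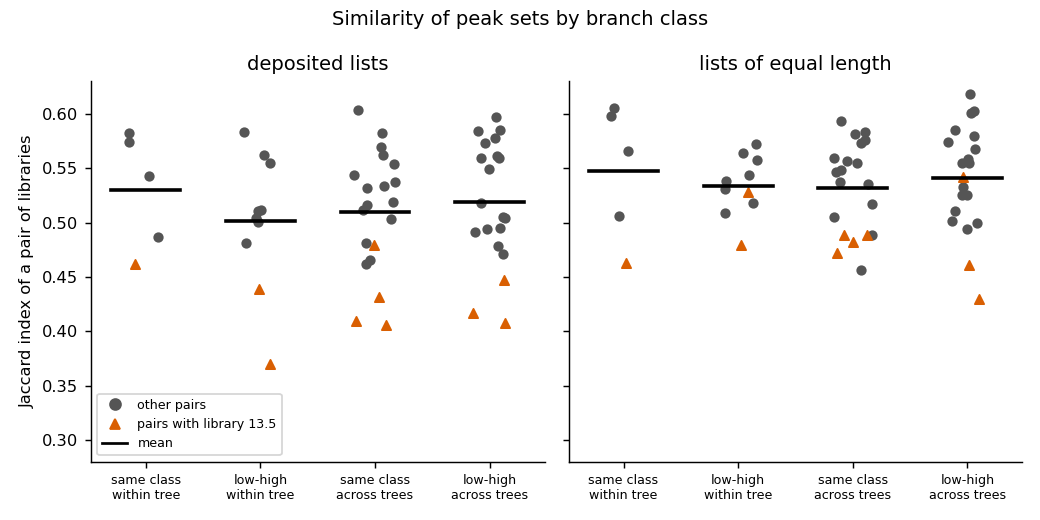
Jaccard index of each of the 55 pairs of libraries, grouped by class within and across trees, for deposited lists and for lists of equal length; triangles are pairs with library 13.5 and bars are means. The groups overlap throughout, and the lowest point of the deposited lists is 13.5 with 13.2 at 0.370.

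Tree by tree, same-class minus low-high similarity was 0.0679 in tree 13, -0.0102 in tree 14 and 0.0243 in tree 4. In tree 13 the low branches 13.1 and 13.2 had an index of 0.574, the high branches 13.4 and 13.5 one of 0.462, and the 4 low-high pairs ranged from 0.370 to 0.511. In tree 14 the low pair, at 0.487, was less alike than any of the 4 low-high pairs, which ranged from 0.5002 to 0.583, while the high pair 14.4 and 14.5 reached 0.543. In tree 4 the high pair had 0.583 and 4.2 had 0.563 with 4.4 and 0.555 with 4.5, so tree 4 showed the order of same class above low-high by a small margin.

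Similarity within trees was also computed without 13.4 and 14.1, the branches the study could not date. The 3 remaining same-class pairs within trees averaged 0.567 and the 6 low-high pairs 0.490. The difference of 0.0769 in the Jaccard index was positive in each tree, at 0.170 in tree 13, 0.0368 in tree 14 and 0.0243 in tree 4. Both low-high pairs left in tree 13 held 13.5, the shortest list, at 0.439 with 13.1 and 0.370 with 13.2. The difference had p = 0.0370 by the exact one-sided permutation test, the smallest that the 27 arrangements allow. Adjusted over the 7 tests of whole lists it was 0.259, which does not pass.

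Leaving out 14.1 alone gave 0.0492 with the same unadjusted p of 0.0370 (exact permutation, adjusted p = 0.259), and leaving out 13.4 alone gave 0.0434 (p = 0.148, exact permutation). Leaving out a low branch of tree 13 lowered the value: without 13.1 the difference was 0.0101 (p = 0.333, exact permutation) and without 13.2 it was -0.00221 (p = 0.593, exact permutation). With lists of equal length and without 13.4 and 14.1 the difference was 0.0641, again with an exact permutation p of 0.0370 and with a positive value in each tree (0.102, 0.0530 and 0.0371), a setting added after the data were seen. The difference was smaller with other measures of likeness. For the overlap coefficient, in which the shared base pairs are divided by the smaller covered length of the pair, it was 0.0200 (p = 0.296, exact permutation). By that measure tree 13, and only tree 13, had the reverse order. There 13.1 with 13.2 had 0.808, against 0.875 for 13.1 with 13.5 and 0.883 for 13.2 with 13.5. With the phi correlation of region calls the difference was 0.00795 (p = 0.481, exact permutation). Without 13.4 and 14.1, each tree held only 1 same-class pair, so the value rests on 3 pairs.

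The regions of library 13.5, the shortest list, were nearly a subset of those of longer lists of both classes. Of the regions called in 13.5, 97.5% were also called in 14.4 and 97.2% in 4.4, which are high libraries of other trees. The lowest share was 90.4%, in 14.5. Among the low libraries of tree 13 the share was 98.7% in 13.2 and 97.1% in 13.1. In return, 13.5 had only 34.2% of the regions of 13.2 and 44.5% of those of 13.1. It called 35 regions that no other library called (0.277% of its own), whereas 13.2 called 3089. It lacked 3376 regions that all 10 other libraries called, against 6 to 360 for each of the others. Of the regions it did call, 81.2% were called in all 11 libraries.

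The share of regions held by both classes was large. Of the 51686 regions, 36021 (69.7%) were called in at least 1 low and 1 high library, 10210 (19.8%) in low libraries only and 5455 (10.6%) in high libraries only. Of the regions seen on 1 side, 79.9% of the low ones and 83.4% of the high ones were called in a single library. Regions called in all 11 libraries numbered 10261 (19.9%) and were wider (median 471 bp) than the 12705 called in a single library (median 121 bp), a width that merging peaks of several libraries raises by construction.

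No region was called more often in either class beyond the threshold. The test was exact and conditional on how many libraries of each tree called the region, and 5419 regions could have reached an unadjusted p under 0.05. After Benjamini-Hochberg adjustment 0 of them passed (percent called 0). At unadjusted p under 0.05, 120 regions (2.21%) differed, of which 118 (2.18%) were called more often in low and 2 (0.0369%) in high libraries. Counting regions at the smallest p alone, adjusted calls would have needed 1004 of them, and 8 reached it.

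The counts on each side moved with the lists and libraries used. With lists of equal length 0 of 2472 regions passed after adjustment, and at unadjusted p 27 were called more often in low and 16 in high libraries. Without 13.2 and 13.5, the longest and the shortest list, the deposited lists gave 16 and 9, a setting added after the data were seen. Without 13.2 alone they gave 15 and 1, without 13.5 alone 9 and 0, and with a minimum peak width of 159 bp 121 and 4, so the lean to the low side remained there. Leaving libraries out also lowers the number of arrangements, and the part of list length in the lean was not tested.

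The 8 regions called in all 5 low libraries and in no high library (0.0155% of all regions) were weak peaks, and the high class had no such region. Their -log10 q values lay between 2.13 and 8.45, and their mean rank within the lists lay between the 7.17 and 45.6 percentile. They were 172 to 528 bp wide. All 8 were also called in 14.3, which has the longest list of trees 13, 14 and 4, 0 in 13.3 and 1 in 4.3. With lists of equal length, 0 of the 8 kept a call in every low library, and 1 had a call in any.

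The strongest of the 8 was on chromosome 2 from 2346258 to 2346583 (325 bp). Its -log10 q was 2.82 in 13.1, 5.17 in 13.2, 8.45 in 14.1, 4.51 in 14.2 and 5.54 in 4.2, a mean of 5.30 ± 2.05 (SD, n = 5). The next lay on chromosome 1, from 33037270 to 33037798 with 3.51 ± 0.743 (SD, n = 5) and from 21112836 to 21113328 with 3.55 ± 1.06 (SD, n = 5). The values of the latter pair lie near the lowest -log10 q of the lists, which is at most 2.05 in each library compared. Positions are as the lists give them, and no genome or gene annotation shown to be of the lists' build was used, so neither the genes at these regions nor their sequences are given.

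**Figure D3:**
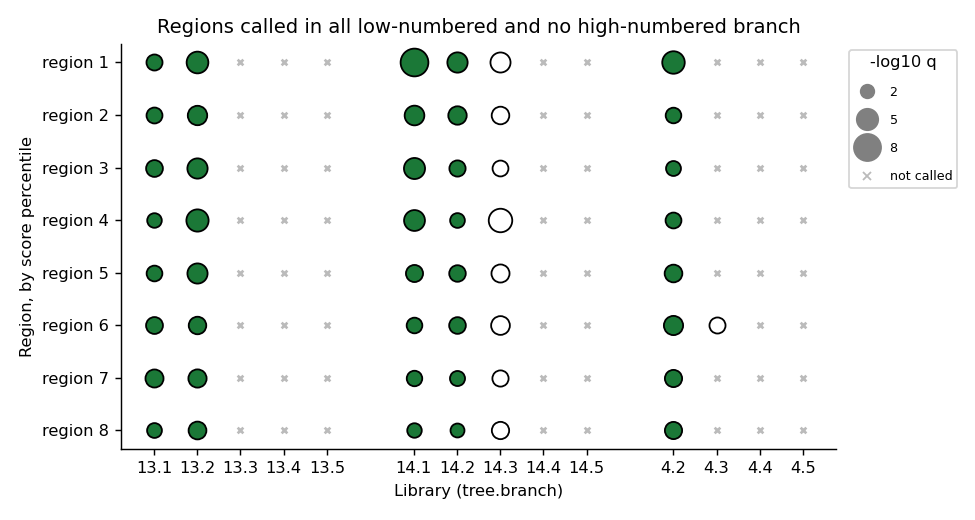
The 8 regions called in all low-numbered and in no high-numbered branches, in order of their mean rank; the area of a circle is proportional to -log10 q in that library, crosses are libraries with no call, and white circles are branch 3. The circles are mostly small, and 14.3 is filled in every line.

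Only 2 regions were called more often in high libraries at unadjusted p. The region on chromosome 2 from 1298066 to 1298292 was called in all 6 high libraries and in 13.2 (exact p = 0.0278), with -log10 q from 3.44 to 5.56. The region on chromosome 1 from 50616724 to 50617133, which was named after its values were seen, was called in all 6 high libraries and in 14.1 (exact p = 0.0278), with -log10 q from 3.58 to 5.87. Each was thus present in 1 low-numbered branch.

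Lists of equal length gave 3 regions that split the classes fully, and in the deposited lists each also had peaks in libraries of the other class. They were named after their values were seen. On chromosome 7 from 396029 to 396332 the 5 low libraries had -log10 q of 9.14 in 13.1, 13.7 in 13.2, 8.63 in 14.1, 10.7 in 14.2 and 7.57 in 4.2. In the deposited lists 4 high libraries also had a peak there, at 3.92 in 13.4, 6.004 in 14.4, 6.61 in 4.4 and 3.32 in 4.5, all below the lowest low value. Libraries 13.5 and 14.5 had no call. The region was picked because its high values missed the cut of the equal lists, which lay at 6.14 in 14.4 and 6.74 in 4.4. The values are not centred by library, and a difference of strength was not tested here.

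On chromosome 18 from 1414894 to 1415125 the low values ran from 5.85 to 10.02, and 4 high libraries had 3.87 to 6.33 in the deposited lists, so the classes overlapped. On chromosome 10 from 10360874 to 10361120 the 6 high libraries had 4.22 to 7.61, and all 5 low libraries had a deposited peak at 3.47 to 6.43. At both regions the split by presence was thus seen only once the lists had been shortened.

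The regions called on 1 side of 1 tree were numerous. In tree 13, 5188 regions (10% of all) were called in 13.1 and 13.2 and in neither 13.4 nor 13.5, and 16 regions (0.031%) were called the other way round. In tree 14 the corresponding numbers were 1050 (2.03%) and 530 (1.03%). In tree 4, where 4.2 was the only low library, they were 1853 (3.59%) and 4489 (8.69%), so the excess lay on the high side.

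With lists of equal length these counts drew together. They were 687 (2.74%) and 524 (2.09%) in tree 13, 509 (2.03%) and 711 (2.84%) in tree 14, and 1937 (7.73%) and 1362 (5.43%) in tree 4, so that trees 14 and 4 turned to the other side. The 5188 regions of tree 13 were not peculiar to its low branches either, since 94.5% of them were called in another tree. By library, 69.7% of them were called in 4.4, 67.5% in 14.4, 66.1% in 14.1, 62.9% in 4.5, 48.7% in 4.2, 44.9% in 14.2 and 32.7% in 14.5. That order is close to the order of peak numbers in these libraries, and the shares in the high libraries 4.4 and 14.4 were above those in every low library of the other trees.

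**Figure D4:**
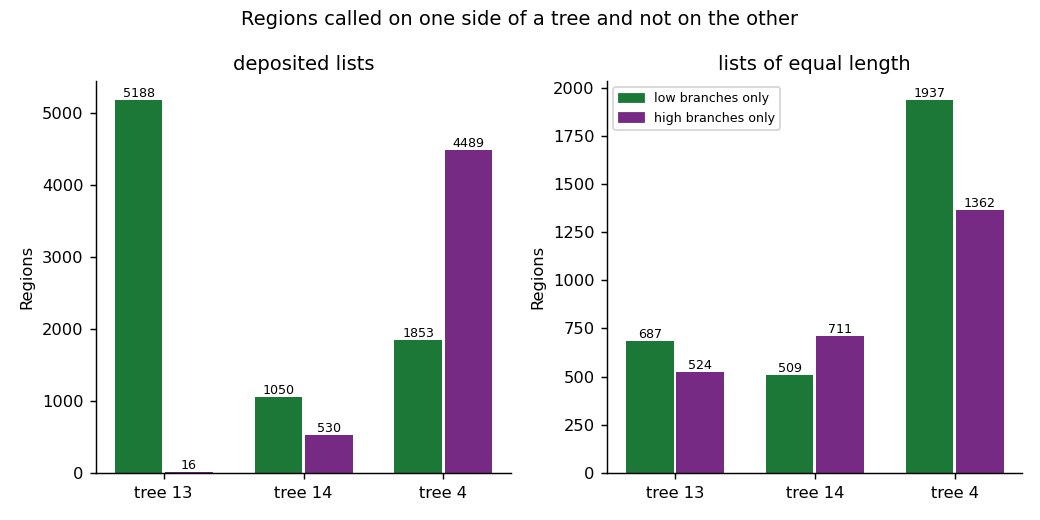
Number of regions called in all low-numbered and no high-numbered branches of a tree (green) and the reverse (purple), for deposited lists and for lists of equal length. The count of 5188 against 16 in tree 13 becomes 687 against 524 once lists have the same length.

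Regions that marked the low side of tree 13 were found on both sides of the other trees. Of the 5188, 189 (3.64%) were also low-only in tree 14 and 114 (2.20%) were high-only there. Read from tree 14, that is 18% of its 1050 low-only regions and 21.5% of its 530 high-only regions. In tree 4, 203 (10.96% of its low-only regions) matched in class and 970 (21.6% of its high-only regions) matched the opposite class. Over all 51686 regions, 10% were low-only in tree 13. The 10.96% was close to that share, and the 18%, 21.5% and 21.6% were above it.

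Among the 189, the regions of highest mean rank show what a low-high difference seen in both stems looked like. On chromosome 17 from 1846131 to 1846278 the -log10 q was 5.37 in 13.1, 7.33 in 13.2, 6.63 in 14.1 and 7.49 in 14.2, with no call in any other library compared. Of the branch 3 libraries, 13.3 (4.93) and 14.3 (3.44) also called it. On chromosome 3 from 21276072 to 21276219 the values in 13.1, 13.2, 14.1 and 14.2 were 6.46, 4.72, 5.55 and 8.32. This region had no other call, branch 3 included. Neither was called in 4.2, the low library of tree 4, and with an exact p of 0.0556 each they could not pass.

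The region of highest rank of all, on chromosome 1 from 6735674 to 6735854, was called in the same 4 low libraries at 3.44 to 11.5. It was also called in the high libraries 4.4, at 13.6, and 4.5, at 7.10, and not in 4.2, so in tree 4 it lay on the opposite side. The only region high-only in both tree 13 and tree 14 was on chromosome 4 from 3098215 to 3098501, at 5.81 in 13.4, 2.81 in 13.5, 8.62 in 14.4 and 2.79 in 14.5. In tree 4 it was called in the low library 4.2 as well as in 4.5.

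With lists of equal length, 27 regions were low-only in both tree 13 and tree 14, and 36 were low-only in tree 13 and high-only in tree 14. For the high-only regions of tree 13 the shared numbers were 26 with the high side and 21 with the low side of tree 14. With tree 4 the opposite classes shared more. Of the high-only regions of tree 13, 106 (20.2%) were low-only in tree 4 and 23 (4.39%) high-only. Of the low-only regions of tree 13, 107 (15.6%) were high-only in tree 4 and 54 (7.86%) low-only. Over all regions of these lists, 7.73% were low-only and 5.43% high-only in tree 4. The same-class shares lay near these values, and the opposite-class shares lay above them. Libraries 13.5 and 4.2, on opposite sides here, had the widest narrowest peaks of the 11 lists, at 159 and 138 bp, against 90 to 120 bp in the others. The part of peak width in that overlap was not tested.

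The strength of regions open in every branch did not differ by class at the adjusted threshold. For the 10261 regions called in all 11 libraries, log2 of -log10 q was centred on the median of each library and fitted with tree and class in limma. After adjustment 0 regions passed (percent called 0), with a smallest adjusted p of 0.252. At unadjusted p under 0.05 there were 431 regions (4.20%), 175 stronger in low (1.71%) and 256 stronger in high libraries (2.49%).

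The direction of these counts depended on the scale. When each region was given its percentile within the list instead of the centred log2 value, 704 regions were stronger in low (6.86%) and 23 in high libraries (0.224%) at unadjusted p, again with 0 after adjustment in limma. The median of all regions was then shifted by -4.46 percentile points, so the percentile counts carry a shift of the whole set. On the log2 scale the centring of each library removes such a shift by construction (median difference 0.01).

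The region with the smallest p lay on chromosome 18 from 441432 to 441836 (404 bp). The low libraries had a -log10 q of 3.62 in 13.1, 4.29 in 13.2, 3.61 in 14.1, 2.47 in 14.2 and 2.75 in 4.2. The high libraries ran from 3.80 over a median of 5.83 to 7.31. The ranges overlap by a small stretch on the deposited scale and not after centring, where the difference was 0.96 ± 0.18 (SE) on the log2 scale (limma, adjusted p = 0.252).

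A second region on chromosome 16 from 10269518 to 10270019 had -log10 q of 2.65 to 5.15 in low and 3.57 to 8.06 in high libraries. Its centred difference was 0.92 ± 0.19 (SE) on the log2 scale (limma, adjusted p = 0.294). On the low side, the region with the smallest p lay on chromosome 15 from 14259911 to 14260242, with 7.27 to 20.7 in low and 4.62 to 8.66 in high libraries and a difference of -0.68 ± 0.19 (SE; limma, adjusted p = 0.9996). None of these passed the adjusted threshold, although the centred classes of all 3 did not overlap.

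The other regions with the smallest p overlapped between classes even after centring. On chromosome 2 from 2809780 to 2810129 the difference was 0.64 on the log2 scale, with a deposited -log10 q of 5.41 to 8.43 in low and 5.93 to 16.7 in high libraries. On chromosome 18 from 1650697 to 1651057 it was -0.64, with 9.07 to 13.4 in low and 4.10 to 9.75 in high libraries. On chromosome 10 from 13687026 to 13687675 it was -0.67, with 4.21 to 7.89 in low and 2.51 to 6.79 in high libraries. Each had an adjusted p of 0.9996 in limma.

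The rank order of strength was shared widely. Over these 10261 regions the Spearman correlation of -log10 q averaged 0.741 for same-class and 0.725 for low-high pairs within trees. Across trees it averaged 0.722 and 0.737. These are correlations across regions, which share a library and its depth, and are given as a description.

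The distribution of peaks over the 19 chromosomes was also alike. The share of peaks on a chromosome differed between classes by -0.136 to 0.105 percentage points, and 0 of 19 chromosomes passed after adjustment (exact permutation, 1 at unadjusted p). That chromosome was chromosome 3, with 5.63 ± 0.0628% of peaks in low (SD, n = 5) and 5.71 ± 0.0917% in high libraries (SD, n = 6). The within-tree difference of 0.104 percentage points had the smallest p the design allows (exact p = 0.00926, adjusted p = 0.176), with 0.127 in tree 13, 0.0560 in tree 14 and 0.129 in tree 4.

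The classes overlapped on chromosome 3 across trees, since the high library 4.4, at 5.62%, was below 13.1, at 5.68%. By covered length the difference on chromosome 3 was 0.0239 percentage points (exact permutation p = 0.509, adjusted p = 0.804), with the opposite sign in tree 13 (-0.0300). The smallest p by covered length, 0.0463 (exact permutation, adjusted p = 0.729), belonged to chromosome 12, which was named after its values were seen. A difference of the same sign in all 3 trees was seen for 5 of 19 chromosomes by peak number and for 3 by covered length.

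**Figure D5:**
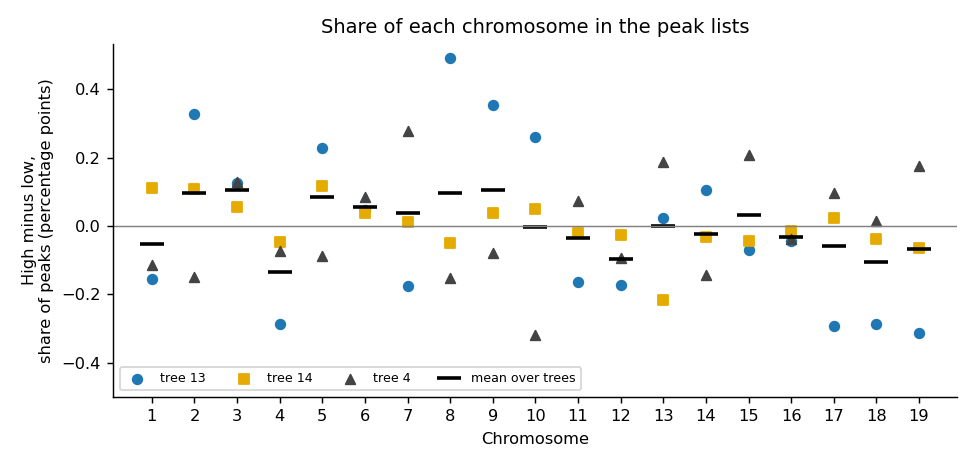
High minus low share of peaks (percentage points) for each chromosome, by tree (symbols) and averaged over trees (bars). On chromosome 3 the 3 trees lie at 0.0560 to 0.129, while on most other chromosomes they fall on both sides of 0.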

How the data were processed

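Leaves of 15 branches were profiled by ATAC-seq, of which 11 libraries were compared. The submitters' processing notes name Trimmomatic 0.36, Bowtie 1.1.1 and MACS2 2.1.2. The sources used here give no genome build, parameters, read shifting or depth. Peaks were called per library. In the deposited lists each peak has a start, an end, a score (the whole part of 10 times its -log10 q) and -log10 p and -log10 q values. Widths are end minus start. A -log10 q rests on that library's depth and background, so a shallower library gives fewer and weaker calls.

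Peaks on the 19 chromosomes were merged and tested as described, with Python 3.11.15, numpy 2.4.6, pandas 2.3.3 and scipy 1.17.1. Strength was fitted in limma 3.58.1 under R 4.3.3. Thresholds were p under 0.05, Benjamini-Hochberg adjusted. The alternatives tried were lists cut to their best 50%, a minimum -log10 q of 10, equal lists, a minimum width of 159 bp, 50% overlap, windows of 501 bp, unplaced sequences kept, a log2 scale for peak numbers, other similarity measures, no tree stratum, limma without tree or with trend, percentiles in place of log2 values, shares of covered length, and leaving out libraries.

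Regions named were up to 3 per direction of highest mean percentile called in all of one class and none of the other, or so in both trees 13 and 14, the 3 smallest limma p per direction, and the smallest p of the region test per direction. The members and lists were chosen with earlier results of these data known. The scripts were tested on simulated data. There the region test called 0 of 200 implanted all-or-none regions, and 2000 of 2000 together with 12 others.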

Additional observations from a re-analysis of the deposited data

Results flagged for a closer look

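Library 13.5 had the widest median peak of the high class, 285 bp against 194.5 to 216 bp in the other 5 high libraries, a gap that passed Dixon's criterion at the 95% level. It was the only such case among 16 groups over 8 measures. Chance flags about 1 in 20 such groups, so 1 flag among 16 is not unusual. With lists of equal length the gap was gone, at 285 bp in 13.5, 285 bp in 4.4 and 284 bp in 4.5. Library 13.5 also had the fewest peaks.

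Peak number went in opposite directions in 2 trees: high minus low was -14469 in tree 13 and 6112.5 in tree 4, with every high library on the same side of every low library in each. Covered length went the same way, at -3.69 Mb in tree 13 and 0.167 Mb in tree 4. The difference between these trees was not tested, and tree 4 has 1 low library.

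Libraries left out of the comparison held peaks outside the 51686 regions. These numbered 694 in 13.3, 3041 in 14.3, 256 in 4.3 and 685 in the library titled 1.1, which are 2.75%, 7.68%, 1.29% and 2.54% of their peaks on the chromosomes. The peak names of the library titled 1.1 give tree 4 and branch 1, so its tree is not settled by the labels.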

How the results depend on the processing

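The 7 tests of whole lists were recomputed 140 times, with 116 values on the same side of an unadjusted p of 0.05 and in the same direction, 20 in the opposite direction and 4 newly at an unadjusted p under 0.05. In the 17 settings with a value for all 7 tests, the reported one included, 0 tests passed after adjustment (smallest adjusted p 0.259, exact permutation). The 4 were all similarity within trees: 0.0769 without 13.4 and 14.1, 0.0641 without both with equal lists, 0.0660 without both with the minimum width, and 0.0492 without 14.1; settings that combine left-out libraries with another change were chosen after seeing the data. Reversed values, none at an unadjusted p under 0.05, were a median -log10 q difference of -0.194 for the most significant 50%, -0.230 at -log10 q of at least 10 and -0.0195 with the minimum width. The median width difference became 2.52 bp with no tree stratum and 13.4 bp without 13.4 and 14.1. The difference in the share of strongly called peaks became 0.408 percentage points without 13.4 and 14.1. With the overlap coefficient, similarity within trees was -0.0122 and across trees 0.00263 (0.00194 without 13.4 and 14.1), and with phi 0.000710 across trees. Leaving out each library in turn gave -8751 to -1956 for peak number and -2.07 to -0.991 Mb for covered length. For median width it gave -20.1 to 16.1 bp (9.92 without 13.4). For median -log10 q it gave -0.0905 to 0.140 (-0.0495 without 13.1, -0.0337 without 13.5, -0.0879 without 14.4, -0.0202 without 4.2, -0.0732 without 4.4). For strongly called peaks it gave -2.21 to -0.242. Similarity within trees ran from -0.00221 (without 13.2) to 0.0492 (without 14.1), and across trees from -0.0183 to 0.00175. The cause was not tested. Regions low-only in trees 13 and 14 numbered 100 in the most significant 50%, 34 with a -log10 q minimum of 10, 27 with equal lists, 535 without 13.4 and 14.1, and 190 to 912 leaving out each library (457 without 13.1, 310 without 13.4, 363 without 14.1, 612 without 14.2, 912 without 14.4). Regions more often called in low libraries at unadjusted p numbered 16 to 181, those in high libraries 0 to 16, and leaving out 1 library gave 0 to 34 and 0 to 1. The 8 all-low regions became 0 to 29, and 9 to 34 leaving out 1 library. Adjusted region calls and strength calls stayed at 0 in every alternative run; the smallest adjusted p in limma was 0.0644, without 13.4. No paired analysis was possible because the classes share no branch number; tree was the stratum. The depth of the libraries is unknown, which limits every comparison of calls.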
